A study of Ascodesmis nigricans with 6 samples.

Results

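Transcripts of young fruiting bodies were set against those of total sexual mycelium in the cup fungus Ascodesmis nigricans, strain CBS 389.68. The comparison rests on 4 of the 6 RNA sequencing libraries of the series. These are 2 libraries of protoapothecia collected by laser microdissection and 2 libraries of total sexual mycelium, and all 9622 gene models of the deposited table were considered. The other 2 libraries, of total vegetative mycelium, entered the fit to help estimate the spread between replicates. Per the labels, every culture grew for 3 days at 25 °C on microdissection slides with rabbit food medium and 0.8% agar and was fixed in ethanol, and RNA was linearly amplified before sequencing. The replicates are labelled as independent biological ones. Only the protoapothecia are labelled as laser-microdissected, so tissue and way of collection cannot be told apart, and whether the total sexual mycelium held protoapothecia is not stated in the labels.

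Apothecia are the open, cup-shaped fruiting bodies of many filamentous ascomycetes, in which the spore sacs (asci) form. They start as protoapothecia, small knots of hyphae in which, in many species, sterile hyphae wrap around the sexual cells. How far this holds for Ascodesmis nigricans was not examined here. Laser microdissection cuts such structures out of the surrounding hyphae under a microscope, so that their RNA can be read apart from that of the mycelium, which otherwise outweighs it. In RNA of a whole tissue, fewer cells of a type and less RNA per cell cannot be told apart. The files give each gene a protein identifier with no gene name or product, and no annotation of this species was used here. For this reason the genes below carry an identifier and no role, no functional list was counted, and the labelled tissues could not be checked against marker genes.

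The library totals were 11794986 and 12676893 counts in protoapothecia and 11589777 and 12402670 counts in sexual mycelium. Counts were scaled by trimmed mean of M-values (TMM) factors and are given as CPM, the counts per 1000000 of the scaled library size. The factors were 0.895 and 0.872 for protoapothecia, 1.32 and 1.41 for sexual mycelium. After genes with few counts had been left out, 8861 gene models were tested with edgeR's quasi-likelihood test.

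The 2 tissues differed far more than replicates of either. Between a protoapothecia library and a sexual library, the median absolute difference over genes was 1.60 to 1.63 on the log2 CPM scale, against 0.405 between the protoapothecia replicates and 0.361 between the sexual replicates. In each of the 4 pairs of a protoapothecia with a sexual library, 67.2% to 67.9% of the genes were over 2-fold apart and 23.0% to 24.9% over 8-fold. Between replicates, 16.7% of the genes in protoapothecia and 13.3% in sexual mycelium were over 2-fold apart, and 0.835% and 0.508% of them over 8-fold. A total of 2049 genes were over 2-fold higher in protoapothecia in all 4 pairs and 2633 were over 2-fold lower in all 4, which is 23.1% and 29.7% of those tested and 52.8% together.

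**Figure D1:**
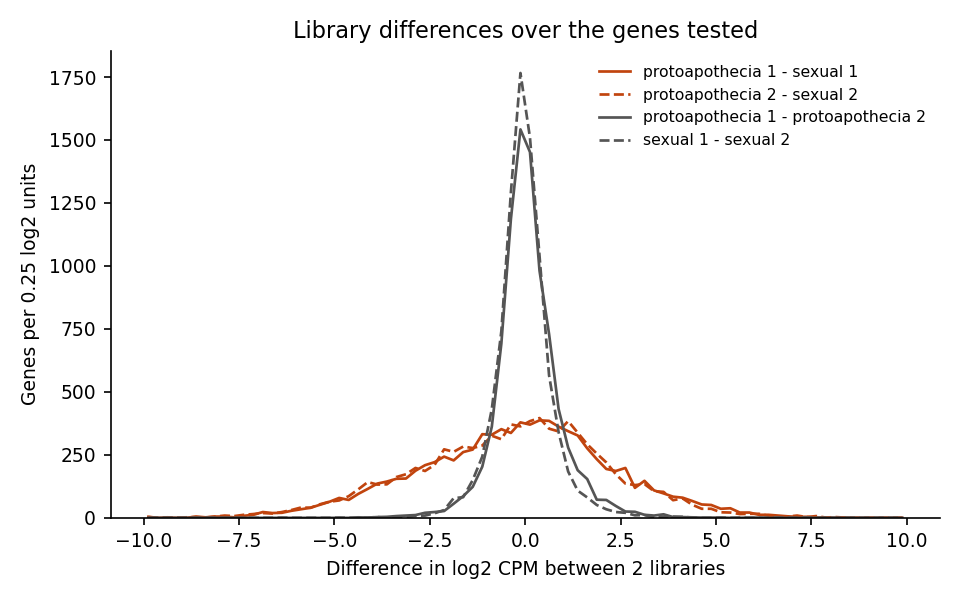
Number of genes (y axis, per 0.25 log2 units) at each difference in log2 CPM between 2 libraries (x axis), for 2 pairs of a protoapothecia with a sexual library (orange) and for the 2 replicate pairs (grey). The tissue pairs spread widely, with 5th and 95th percentiles of -4.64 and 3.94 for the first replicates and -4.70 and 3.64 for the second, whereas the replicate pairs stay mostly within 1 unit of 0.

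At an adjusted p under 0.05 (edgeR, Benjamini-Hochberg over all genes tested), 2718 genes (30.7%) were higher and 3267 genes (36.9%) were lower in protoapothecia than in sexual mycelium, and the 2876 others did not pass. The called genes were 67.5% of those tested. Both libraries of one tissue lay above both of the other in 5984 of the 5985 called genes, but also in 84.2% of all genes tested (39.4% higher and 44.7% lower). With 2 libraries a side, an exact two-sided permutation test of a single gene cannot go below p = 0.333, so each call draws on the spread that the fit shares across genes. Against a minimum change of 2-fold (edgeR's glmTreat, adjusted p under 0.05), 1784 genes (20.1% of those tested) were higher and 2398 (27.1%) were lower, 47.2% together.

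How the calls divided into the 2 directions was set in part by the scaling. Under TMM scaling 45.4% of them were rises, under upper-quartile scaling 38.5%, under RLE scaling (median of ratios) 53.1% and under unscaled library totals 30.9%. The median log2 fold change of all genes tested was -0.16, -0.46, 0.15 and -0.78 in the same order, so a log2 fold change of a single gene is best read against that centre.

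The fall of the lower genes reached further than the rise of the higher ones. Among the genes that rose, the fitted fold was under 4 for 1271 genes, 4 to 16 for 1040 and 16 or more for 407. Among the genes that fell, it was under 4 for 1122 genes, 4 to 16 for 1333 and 16 or more for 812. The 5th and 95th percentiles of the log2 fold change over all genes tested were -5.00 and 3.85. Large falls went down to very few reads: of the 812 genes, 217 had at most 3 counts in the 2 protoapothecia libraries together and 90 had none. Of the 407 genes that rose 16-fold or more, 26 had at most 3 counts in the sexual libraries together and 4 had none. For such genes the counts set only a lower bound to the fold, so some of them are not shown to differ by 16-fold.

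**Figure D2:**
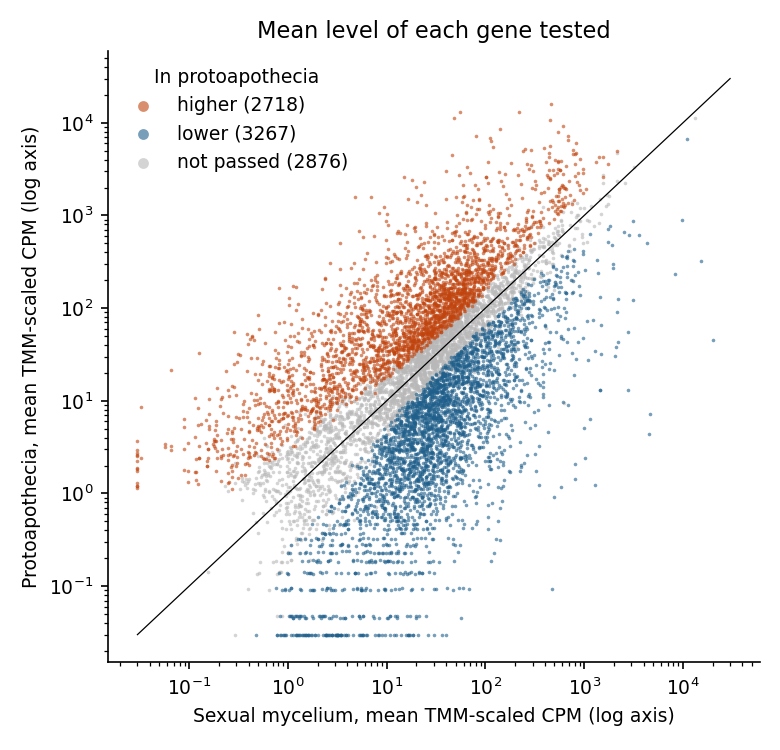
Mean TMM-scaled CPM of each gene tested in protoapothecia (y axis) against sexual mycelium (x axis), both on log axes, with means under 0.03 CPM drawn at 0.03 and the line of equal level in black. The 2718 higher genes (orange) are most crowded at high levels in protoapothecia, and the 3267 lower genes (blue) reach down to rows of 0, 1 or a few counts.

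Fewer genes were detected in protoapothecia. At least 10 counts in both replicates were found for 7755 gene models in protoapothecia and 8495 in sexual mycelium. Of these, 7446 were common to both tissues, 309 reached that count in protoapothecia but not in sexual mycelium, and 1049 the other way round. No count in either replicate was found for 377 gene models in protoapothecia and 119 in sexual mycelium, of which 79 were at 0 in both tissues. Most of the 298 gene models read in sexual mycelium but not in protoapothecia were weakly read, with a median of 8 counts summed over both sexual libraries, and 90 of them were called lower. The 40 gene models read in protoapothecia but not in sexual mycelium had a median of 4 summed counts, and 4 were called higher.

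The reads were also spread over fewer genes in protoapothecia. The 214 and 199 most counted genes made up 50% of the counts of the protoapothecia libraries, against 311 and 410 genes in the sexual libraries. For 90% of the counts it took 2247 and 2154 genes in protoapothecia and 3255 and 3484 genes in sexual mycelium. The 2 tissues do not overlap in either number. At the very top the order was not the same, because the 10 most counted genes took 9.83% and 10.02% in protoapothecia, 17.2% in sexual replicate 1 and 9.8% in sexual replicate 2. With 2 libraries a side these differences are given as values, without a test.

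**Figure D3:**
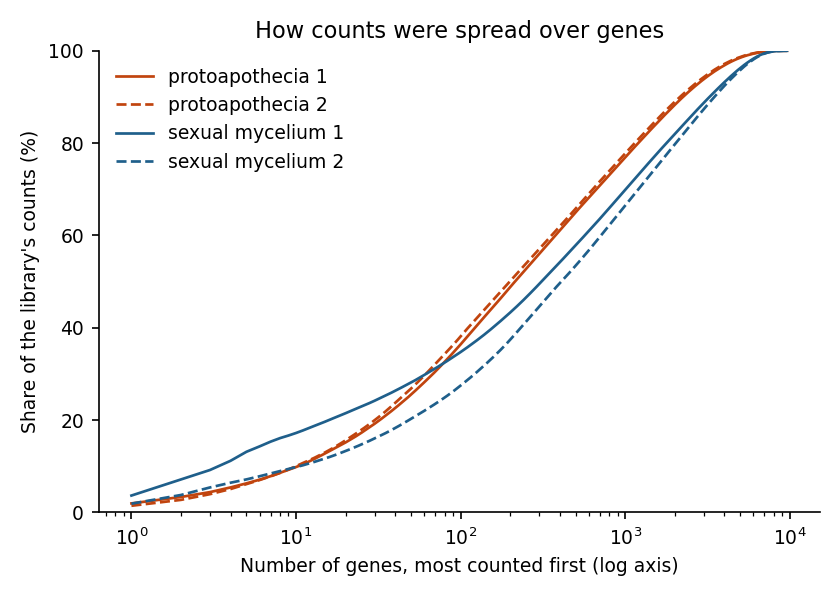
Share of a library's counts (y axis, %) taken by its most counted genes (x axis, number of genes on a log axis), one line per library. From the first 100 genes both protoapothecia lines run above both sexual lines until all meet at 100%, and sexual replicate 1 starts above the 3 other libraries.

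Calls of a rise were most frequent among strongly read genes, and calls of a fall among weakly read ones. Genes were split into 5 equal classes by the mean log2 CPM over the 4 libraries, a measure of read support and not of level per length. In the highest class 50.1% of 1772 genes were higher and 19.3% were lower, against the 30.7% and 36.9% over all genes. In the lowest class 20.4% were higher and 43.4% were lower, and in the second lowest 19.7% and 52.4%. The median log2 fold change was 0.75 in the highest class and -1.29 in the lowest, with median standard errors of 0.270 and 0.716 per gene. Higher calls outnumbered lower ones in the highest class, and lower calls outnumbered higher ones in the lowest, under all 15 alternative settings. The classes come from the contrasted libraries themselves and every setting refits the same counts, so the shares describe the classes only. The margin in the highest class was smallest with library totals, at 34.6% higher and 29.9% lower.

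The same genes were then ordered by vegetative mycelium, whose libraries are not part of the contrast, although they share its scaling and its estimate of spread. Vegetative log2 CPM correlated across genes at 0.768 to 0.822 (Pearson) with the sexual libraries, and at 0.397 to 0.404 with the protoapothecia libraries. An order by vegetative level is thus also in part an order by sexual level, so the shares below describe the classes only. Levels were divided by the deposited mRNA length, as CPM per kb. Of the 376 tested genes with no count in vegetative mycelium, 54.8% were higher in protoapothecia than in sexual mycelium and 9.57% were lower. The share of lower genes among them was 5.07% without sexual replicate 2, 5.88% without sexual replicate 1 and 5.61% without protoapothecia replicate 2. These genes entered the test through their counts in the other tissues. In the lowest of 5 equal classes of the remaining genes, with a median of 0.355 CPM per kb in vegetative mycelium, 45.0% were higher and 15.8% lower. Without sexual replicate 2 the share of lower genes in that class was 9.79%. The pattern turned in the 4 classes above the lowest, where 23.8% to 28.1% were higher and 39.9% to 46.0% were lower. The median log2 fold change was 2.19 among genes silent in vegetative mycelium, 1.21 in the lowest class and between -0.62 and -0.48 in the 4 others. With library totals, the shares among silent genes were 46.3% higher and 12.5% lower, and in the class of highest vegetative level 14.0% and 57.7%. At the very top of the vegetative order the shares were not those of the highest class. Of the 100 genes with the highest CPM per kb in vegetative mycelium, 45 were higher in protoapothecia than in sexual mycelium, 23 were lower and 32 did not pass, with a median log2 fold change of 0.39. With library totals, 29 of them were higher and 36 lower, so the direction held by more of these genes depended on the scaling.

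**Figure D4:**
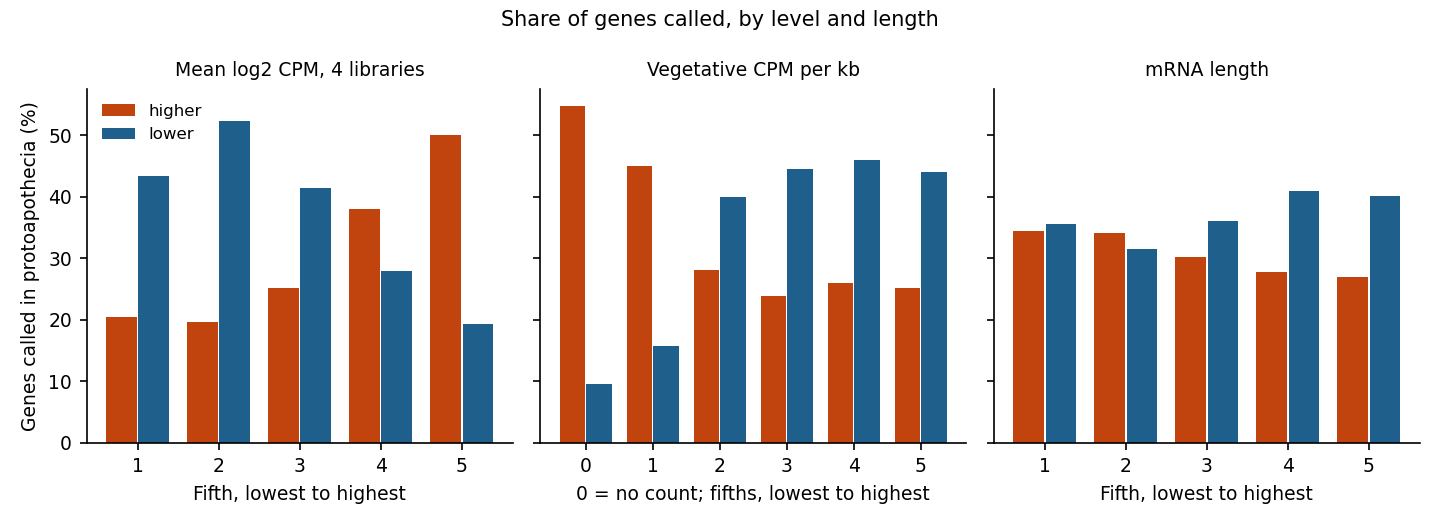
Share of genes (y axis, %) called higher (orange) or lower (blue) in protoapothecia than in sexual mycelium, in classes of equal size from lowest to highest. Classes are by mean log2 CPM over the 4 libraries (left), by vegetative CPM per kb with a class of no count (middle) and by mRNA length (right). Higher calls go from 20.4% to 50.1% with mean level and from 54.8% to 25.1% with vegetative level, and the changes with length are smaller.

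In level per length, the genes that rose had a median of 60.1 CPM per kb in protoapothecia, 13.2 in sexual mycelium and 5.99 in vegetative mycelium. The genes that fell had a median of 3.14 CPM per kb in protoapothecia, 20.9 in sexual mycelium and 17.1 in vegetative mycelium. The genes that did not pass had 13.1 CPM per kb in both protoapothecia and sexual mycelium and 8.77 in vegetative mycelium. The medians of the 2 mycelia were closer for the lower genes than for the higher genes or for those that did not pass. The classes were picked by the protoapothecia and sexual values, which by itself shifts the sexual medians. These medians therefore describe the classes only. The 2 mycelia were not compared by a test here.

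The most abundant transcripts of the protoapothecia were mostly ones that had risen. Of the 100 genes with the highest CPM per kb in protoapothecia, 90 were called higher, 2 lower and 8 did not pass, with a median log2 fold change of 2.72. Their share was 34.2% and 34.6% of all protoapothecia counts, against 12.1% and 12.7% of those of sexual mycelium. Of the 100 genes highest in sexual mycelium, 16 were called higher in protoapothecia, 55 lower and 29 did not pass, with a median log2 fold change of -1.26. Their share was 9.89% and 9.71% of all protoapothecia counts, against 32.6% and 23.9% of those of sexual mycelium. Each list was picked by its level in one side of the contrast, which by itself favours one direction, so the counts describe the lists only. With library totals 77 of the protoapothecia list were higher and 4 lower, and 8 of the sexual list were higher and 66 lower. The 2 lists had 25 genes in common, of which 16 were called higher, 2 lower and 7 did not pass.

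Of the called genes, the 2 with the largest rise and the 2 with the largest fall in mean CPM are described in each library. The gene proteinId324922, with an mRNA of 1168 bases, stood at 15533 and 16546 CPM in protoapothecia, against 282 and 644 CPM in sexual mycelium. It was the second most counted gene of protoapothecia replicate 1 and the most counted of replicate 2, and took 1.39% and 1.44% of their counts. The groups lay far apart, with a protoapothecia mean of 16039 ± 716 CPM against a sexual mean of 463 ± 255 CPM (SD, n = 2 each), a 34.6-fold difference. The fitted log2 fold change was 5.11 ± 0.70 (SE; edgeR adjusted p = 0.000824) and became 5.85 without sexual replicate 2, 4.65 without sexual replicate 1 and 4.47 with library totals. In vegetative mycelium it had 1 and 11 counts.

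The gene proteinId365999, with an mRNA of 593 bases, stood at 11347 and 14664 CPM in protoapothecia, against 63.7 and 47.7 CPM in sexual mycelium. Both replicate pairs were close, and the protoapothecia mean of 13006 ± 2346 CPM was 233-fold the sexual mean of 55.7 ± 11.3 CPM (SD, n = 2 each). The fitted log2 fold change was 7.87 ± 0.52 (SE; edgeR adjusted p = 8.45e-05). It had 0 and 2 counts in vegetative mycelium. Both of these genes were thus at or near 0 in vegetative mycelium and among the 4 most counted genes of each protoapothecia library.

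The largest fall was that of proteinId190317, with an mRNA of 676 bases, which stood at 27.8 and 63.3 CPM in protoapothecia, against 26497 and 13427 CPM in sexual mycelium. Its share was 0.00248% and 0.00552% of all protoapothecia counts, against 3.49% and 1.90% of those of sexual mycelium, where it was among the 2 most counted genes of each library. The fitted log2 fold change was -8.78 ± 0.66 (SE; edgeR adjusted p = 0.000112). It became -9.50 without protoapothecia replicate 2 and -8.19 without sexual replicate 1. In vegetative mycelium proteinId190317 had 9 and 7 counts, so a level near 0 there was not particular to the genes that rose.

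The second, proteinId394959, with an mRNA of 920 bases, stood at 240 and 402 CPM in protoapothecia, against 27783 and 2756 CPM in sexual mycelium. In vegetative mycelium it had 10654 and 17294 counts. Its sexual replicates were 10.1-fold apart, so the size of the fall rests on sexual replicate 1, in which it was the most counted gene. The fitted log2 fold change was -5.57 ± 1.08 (SE; edgeR adjusted p = 0.00372), and -3.09 without sexual replicate 1. Over all genes tested, 3.63% had protoapothecia replicates over 4-fold apart and 2.23% such sexual replicates. Of the higher genes, 46 (1.69%) had such protoapothecia replicates and 24 (0.883%) such sexual replicates, under the shares over all genes. Of the lower genes, 118 (3.61%) and 70 (2.14%) had them, close to the shares over all genes.

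**Figure D5:**
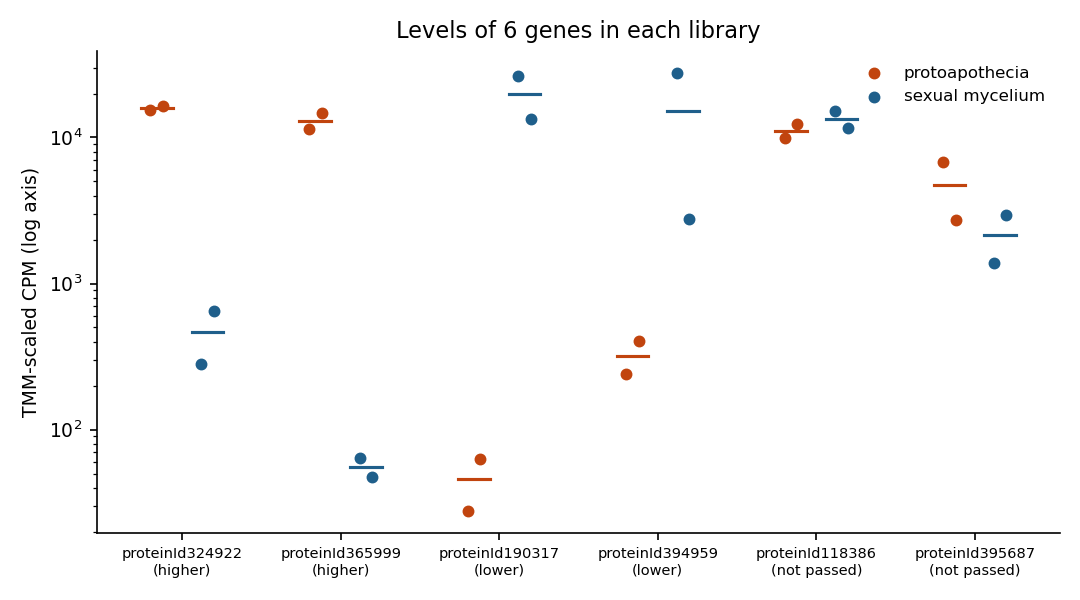
TMM-scaled CPM (y axis, log axis) of 6 genes in each protoapothecia library (orange) and each sexual library (blue), with the mean of 2 libraries as a bar. The 2 higher and 2 lower genes show no overlap of the tissues, and the sexual replicates of proteinId394959 are 10.1-fold apart.

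Some abundant transcripts did not pass. The gene proteinId118386, with an mRNA of 952 bases, was the one with the highest mean CPM, at 9873 and 12372 CPM in protoapothecia, against 15134 and 11537 CPM in sexual mycelium. In vegetative mycelium it had 9373 and 19508 counts. The tissues overlapped, and the fitted log2 fold change was -0.26 with a 95% interval of -1.10 to 0.58 (edgeR adjusted p = 0.534). Its sign depended on the scaling, with 0.05 by RLE size factors. The next, proteinId395687, with an mRNA of 596 bases, was at 6784 and 2709 CPM in protoapothecia, against 1383 and 2922 CPM in sexual mycelium. In vegetative mycelium it had 1 and 13 counts. Its interval of -0.55 to 2.83 around a log2 fold change of 1.14 (edgeR adjusted p = 0.191) leaves a change of several-fold possible.

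For most genes that did not pass, the data did not bound the change tightly. Of the 2876 genes that did not pass, 2370 had a fitted change under 2-fold in either direction, but the 95% interval of the log2 fold change lay within 2-fold for 740 (25.7%). For 835 genes (29.0%) the interval reached 4-fold or more. An unadjusted p under 0.05 was found for 272 of the 2876 genes (edgeR).

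With all 6 libraries in the fit, rises were called somewhat less often among longer mRNAs, and more clearly so past the 2-fold minimum. In the shortest of 5 equal classes (156 to 756 bases) 34.4% of genes were higher and 35.6% lower in protoapothecia, and in the longest (2185 to 17559 bases) 26.9% were higher and 40.1% lower. Past the 2-fold minimum, 26.2% were higher and 28.2% lower in the shortest class, against 15.5% and 27.9% in the longest. The median log2 fold change was -0.01 in the shortest class and -0.32 in the longest. Its 5th and 95th percentiles were -6.47 and 5.27 in the shortest class, and -4.24 and 2.94 in the longest. The estimates were also less precise for short mRNAs, with median standard errors of 0.493 in the shortest class and 0.324 in the longest. The sexual replicates differed with length too: the median log2 difference of replicate 1 minus replicate 2 was 0.15 in the shortest class and -0.24 in the longest, against 0.00 and -0.04 between the protoapothecia replicates. Across the 8861 genes, the Spearman correlation with length was -0.07 for the log2 fold change, -0.26 for the difference between the sexual replicates and -0.02 for that between the protoapothecia replicates. These values describe the libraries, since genes are not independent replicates. Without sexual replicate 2, higher calls were 25.9% in the shortest and 27.4% in the longest class, and without sexual replicate 1 they were 28.3% and 22.4%. Among genes in the 2 highest classes of mean level, 40.4% of the shortest and 43.2% of the longest were higher. Past the 2-fold minimum, the shares of higher genes among them were 26.8% and 25.7%. The part of RNA amplification in these values was not tested.

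The authors' deposited table gives its own DESeq ratio of protoapothecia over sexual mycelium. Its log2 ratio was above the fold change fitted here by a median of 0.30 over 8823 genes, with 5th and 95th percentiles of 0.23 and 0.45. Most differences in calls lay on the side of that shift. Genes called higher by the authors' deposited table but not here numbered 483 among the tested genes, with a median fitted log2 fold change of 0.65, and 3 genes were called higher here alone. In the other direction 413 genes were called lower here alone, with a median of -0.995, against 7 that are lower in the authors' deposited table alone.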

How the data were processed

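RNA sequencing counts of 6 libraries were used, 2 each of protoapothecia, total sexual and total vegetative mycelium, grouped by their labels. Per the file headers, the deposited values are raw read counts per gene model, beside an mRNA length in bases. The authors' ratio and adjusted p-value from DESeq, rounded to 2 decimals, stand in the same deposited table, and DESeq is named without a version in the submitters' processing notes. For the aligner, counting tool, strand setting, genome build, annotation and treatment of reads shared by near-identical genes, the entry is: not given in the sources used here. The number of per-sample columns left unused is 0.

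Genes were filtered with edgeR's filterByExpr (761 of 9622 left out), scaled with TMM factors and fitted over all 6 libraries by group without a replicate term (edgeR 4.0.16, robust quasi-likelihood; limma 3.58.1, DESeq2 1.42.0, R 4.3.3). Calls are two-sided at a Benjamini-Hochberg adjusted p under 0.05. Standard errors were derived as the log2 fold change over the square root of the test's F, and 95% intervals from the same fit. The log2 CPM values have a prior count of 2. The counts carry no molecular identifiers, so depth-based limits cover counting error only.

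The genes named are, by rule, the 2 with the largest rise and the 2 with the largest fall in mean CPM among called genes whose tissues do not overlap, and the 2 most counted genes that did not pass. The comparison and lists were chosen with earlier results of these data known. Replicates of a group differed by far more than counting noise. Differences between replicates 1 and 2 correlated at 0.04 across genes between the 2 tissues. The code of the test was run on counts simulated from the fit's own estimate of spread. Such counts cannot show whether that model holds for these libraries. Alternatives were other scalings, filters and tests, the 4 libraries alone, a replicate block and each library left out. Classes by vegetative level and the lists of 100 genes were added after the data were seen.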

Additional observations from a re-analysis of the deposited data

How the results depend on the processing

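Of the 5985 genes changed, 4132 (69.0%) were called in the same direction under all 15 alternatives, namely 1708 rises and 2424 falls, and no gene was called in opposite directions. The number changed was 5214 to 6136 over these alternatives. Leaving out 1 library gave 5214 to 5530 genes, 2356 to 2495 higher and 2834 to 3035 lower, and 1498 to 1649 higher and 2085 to 2260 lower past the 2-fold minimum. Among the counts over all genes, 1 moved by over 1.5 times: with library totals alone, 1153 genes were higher past the 2-fold minimum, against 1784 with TMM factors. The shift of the median log2 fold change to -0.78 under that scaling goes with it. The replicate numbers are not shown to pair the samples, and a replicate block gave 5698 calls (2585 higher, 3113 lower), 5640 of them shared with the fit without it. Some numbers in the lists of 100 genes also moved by over 1.5 times. The number lower in the protoapothecia list did so under 12 alternatives (0 to 4 genes, against 2). The number higher in the sexual list did so under 1 (8 with library totals, against 16). In the vegetative list both numbers did so with library totals (29 higher, against 45, and 36 lower, against 23). The 4 libraries alone gave 5574 calls. Where 1 library of a group was left out, the remaining one is taken to vary as the other groups do. The 6 genes named kept their side of the threshold under all 15 alternatives. The 2 that did not pass came close to it, as did the called gene proteinId394959 with 1 protoapothecia library left out. The lowest adjusted p was 0.058 for proteinId118386 (edgeR with library totals) and 0.05004 for proteinId395687 (DESeq2). Without the filter on low counts, the lowest class of mean level had 12.7% higher and 27.2% lower genes, since weakly read genes were added. In that class, higher genes were 12.0% without sexual replicate 1 and 10.7% without sexual replicate 2. Low counts limit what can be called, as the median standard error of 0.716 in that class shows.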
